A study of Mus musculus with 21 samples.

Results

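The glycolysis and hypoxia response genes described here were a named list of 30 genes, 14 glycolytic enzymes and 16 other genes of glucose uptake, control of glycolytic flux, oxygen sensing and the hypoxia response. Their probes were found by gene symbol, current or older, which gave 54 probes. Of the 30, 23 had a probe that passed a filter on dim signals, among 9961 named genes that passed it. Glycolysis breaks glucose down to pyruvate in the cytosol, and most of its enzymes are encoded by small families of genes whose members are used in different tissues. When oxygen is scarce, the prolyl hydroxylases that mark hypoxia-inducible factor 1 alpha for destruction slow down, the factor builds up, and it binds short DNA elements next to genes for glucose uptake, glycolysis, pH balance and blood vessel growth. Many glycolytic enzymes are therefore also hypoxia targets.

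RNA came from small intestine of mouse embryos at E18.5, on a mixed strain background, and each of 21 libraries was hybridised to an Illumina WG6_V2 bead array. The 10 libraries labelled Prdm1-/- came from embryos with the Villin-Cre transgene, which drives Cre in intestinal epithelium, and the Prdm1 alleles CA and BEH. The 11 libraries labelled Prdm1+/+ came from embryos with 1 CA allele and 1 wild-type allele, so both groups carried a CA allele and both were born to mothers carrying the R26R allele. Prdm1 encodes Blimp1, a repressor of transcription. Since the labels give Villin-Cre to the mutants only, an effect of the transgene and an effect of the Prdm1 genotype cannot be told apart. The BEH allele is present in every cell of a mutant, not in epithelium alone. The comparison asks how the expression of these genes in fetal intestine differed with the Prdm1 genotype.

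The libraries held 14614 to 16085 detected probes in labelled mutants and 14596 to 15942 in labelled controls. The Prdm1 probe that was detected read 7.99 ± 0.59 log2 intensity in labelled mutants (SD, n = 10), all of them detected, and 4.55 ± 0.22 in labelled controls (SD, n = 11), with 0 of 11 detected, so labelled mutants had at least 7.31-fold more signal (limma adjusted p = 1.64e-12). A further probe of the gene was below detection throughout. More signal in the mutants is the opposite of what losing the transcript would give. The place of the probe within Prdm1 is unknown here, so this signal is no check of the deletion, and the text speaks of labelled mutants and labelled controls, with every direction taken from the labels. Of 8 tested epithelial markers 3 were higher (Krt20, Krt8 and Vil1) and 1 lower (Krt18) in labelled mutants, Epcam and Fabp2 were not detected on any array, and all 4 tested leukocyte markers were lower (Csf1r, Lyz2, Cd52 and Aif1), with Ptprc and Itgam not detected on any array. Of 3 tested colon markers, Car1 was higher (1.34 ± 0.38, adjusted p = 0.0137), with detection in 6 labelled mutants and in no labelled control, Aqp8 was lower (-1.58 ± 0.16, adjusted p = 9.19e-08) and Hoxa13 was not called. Car1 met the filter on dim signals, detection in 5 or more arrays, only through labelled mutants. Its adjusted p is therefore no independent support for a rise. The summed signal of the 3 colon markers was 160 to 398 in labelled mutants and 365 to 672 in labelled controls. Labelled mutant 5 stood apart from the rest in these genes, as given below.

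Levels are log2 intensity after background correction and quantile normalization, and a difference is the level in labelled mutants minus that in labelled controls ± SE from a limma fit with n = 10 and n = 11. All p-values are limma's, adjusted by Benjamini-Hochberg across the 16641 tested probes, and a gene was called at an adjusted p under 0.05. Brightness depends on the probe, so no probe's level is set against another's. In whole intestine, fewer cells of a type and less RNA per cell cannot be told apart.

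Promoter sequence of 3 members that the results turn on is shown first. Car9 had the largest called rise among the members, Pgam2 the only called fall, and Pgam1, which rose, is the close relative of Pgam2. The windows run from 250 bases before to 50 bases after the annotated start, 5′ to 3′ on the gene's own strand, and come from RefSeq for the mouse build GRCm38.p6. Capitals mark ACGTG or GCGTG on either strand, the core letters of the element that hypoxia-inducible factors bind. ACGTG also lies within the E-box CACGTG.
Car9, chr4:43506776-43507075, plus strand: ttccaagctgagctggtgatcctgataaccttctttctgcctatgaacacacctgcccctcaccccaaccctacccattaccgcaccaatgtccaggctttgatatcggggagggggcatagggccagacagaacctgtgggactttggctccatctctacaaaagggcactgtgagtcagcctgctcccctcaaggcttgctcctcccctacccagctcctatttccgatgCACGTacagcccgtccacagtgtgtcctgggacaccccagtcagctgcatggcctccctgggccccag
Pgam1, chr19:41911621-41911920, plus strand: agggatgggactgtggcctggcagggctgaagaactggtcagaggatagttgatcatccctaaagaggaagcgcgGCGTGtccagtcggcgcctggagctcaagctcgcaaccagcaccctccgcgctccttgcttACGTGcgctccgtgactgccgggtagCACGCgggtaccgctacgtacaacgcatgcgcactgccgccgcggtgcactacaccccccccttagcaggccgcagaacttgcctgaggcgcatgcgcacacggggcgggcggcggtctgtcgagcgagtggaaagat
Pgam2, chr11:5803747-5804046, minus strand: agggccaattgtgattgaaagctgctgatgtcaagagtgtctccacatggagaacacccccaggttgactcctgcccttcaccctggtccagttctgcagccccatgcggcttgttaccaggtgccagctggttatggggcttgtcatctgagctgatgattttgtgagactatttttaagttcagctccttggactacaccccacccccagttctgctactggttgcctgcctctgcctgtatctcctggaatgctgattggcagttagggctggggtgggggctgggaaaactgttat
The Car9 window held a single ACGTG, read on the opposite strand, whose match begins 18 bases before the start. The Pgam1 window held 1 ACGTG, 114 bases before the start, and 2 GCGTG, 175 and 88 bases before it. The Pgam2 window held neither, which says only that these letters are not in this window. The letters did not follow direction in other members. The window of Tpi1, which rose, held neither. A window of Ldha, which was not called, held 5 ACGTG and 2 GCGTG, counted on both strands. The ACGTG matches 145 and 144 bases before the start are the same CACGTG read on each strand, as are those at 48 and 47. The other Ldha window held 0 ACGTG and 2 GCGTG. Of the 30 members 29 had a RefSeq window and 26 had the letters in at least 1 of them. Of the 41 member windows, some of which overlap, 75.6% held ACGTG or GCGTG, beside 43.8% of all 32851 windows, and 53.7% held ACGTG, beside 19.6%. A match is a description of sequence and not a binding site.

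Glycolytic enzymes were mostly higher in labelled mutants, by small amounts, with a single exception that went the other way by a large amount. Of the 11 enzymes tested, 9 rose (Pfkl, Pfkp, Aldoa, Tpi1, Gapdh, Pgk1, Pgam1, the enolase probe and Pkm), Pgam2 fell, and Ldha did not pass the test. Among all 9961 genes, 10.6% were called higher and 12.6% lower. Of the 12 other members tested, 5 rose (Pdk1, Egln3, Car9, Ndrg1 and P4ha1), 0 fell, and 7 did not pass (Slc2a1, Hif1a, Egln1, Vegfa, Ddit4, Ankrd37 and Kdm3a). The differences of Egln1, Vegfa and Kdm3a were below 0. The median difference was 0.34 over the glycolytic enzymes and 0.31 over the other members, beside 0.01 over all genes. Whether the 2 classes differ from each other in their share of calls was not tested. No probe was matched to Hk2 or Gpi1, and Hk1, Pfkfb3, Bnip3, Adm and Higd1a had probes that were all too dim to be tested.

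**Figure D1:**
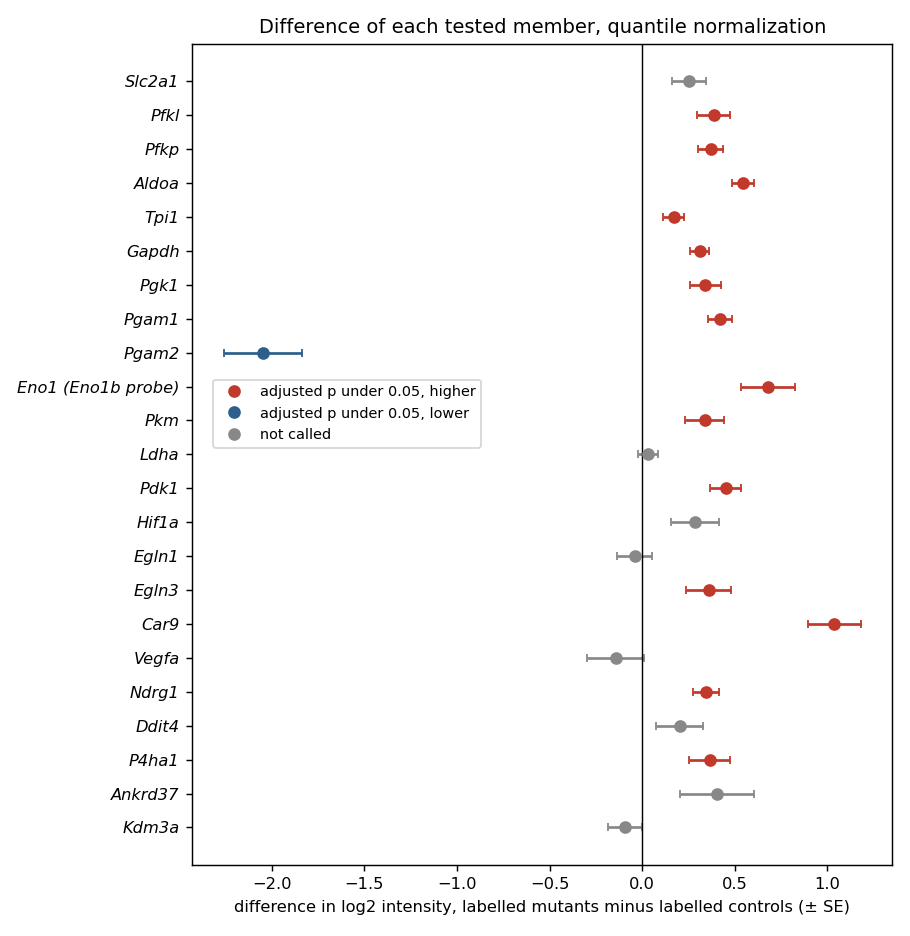
Difference in log2 intensity of each of the 23 tested members, labelled mutants minus labelled controls, as points with SE bars (n = 10 and n = 11), in the order of their roles, coloured by call. The 14 called rises lie between 0.17 (Tpi1) and 1.04 (Car9), and Pgam2 stands alone on the left at -2.05.

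Labelled mutant 5 was the highest of all 21 libraries for 17 of the 23 members, and no other labelled mutant was the highest for more than 1. Relative to each gene's mean over all libraries, its median level was 0.42 over the glycolytic enzymes and 0.59 over the other members. The other labelled mutants had medians of 0.04 to 0.28 over the glycolytic enzymes and -0.08 to 0.18 over the other members, and the labelled controls had -0.24 to -0.05 and -0.24 to 0.04. All 10 labelled mutants were thus above all 11 labelled controls in the median over the glycolytic enzymes, but not in that over the other members. The members were chosen with earlier results of these data known. This separation was not set against other gene lists, so it does not set the glycolytic enzymes apart. Without labelled mutant 5, 8 glycolytic enzymes were higher and 1 lower, and 4 other members were higher and 1 lower, with median differences of 0.29 and 0.25, beside 10.5% of all genes higher and 12.4% lower. Its summed signals of markers of red blood cells, muscle, endothelium and handling stress lay within the range of the other labelled mutants. Without the 6 labelled mutants with Car1 signal, 6 glycolytic enzymes were higher and 1 lower and 4 other members were higher and 0 lower, with median differences of 0.39 and 0.35. The 4 labelled mutants left were numbers 1, 2, 3 and 5. Labelled mutant 5 thus weighed more here and wherever this subset is used below. With these fewer libraries 5.58% of all genes were called higher and 6.98% lower.

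**Figure D2:**
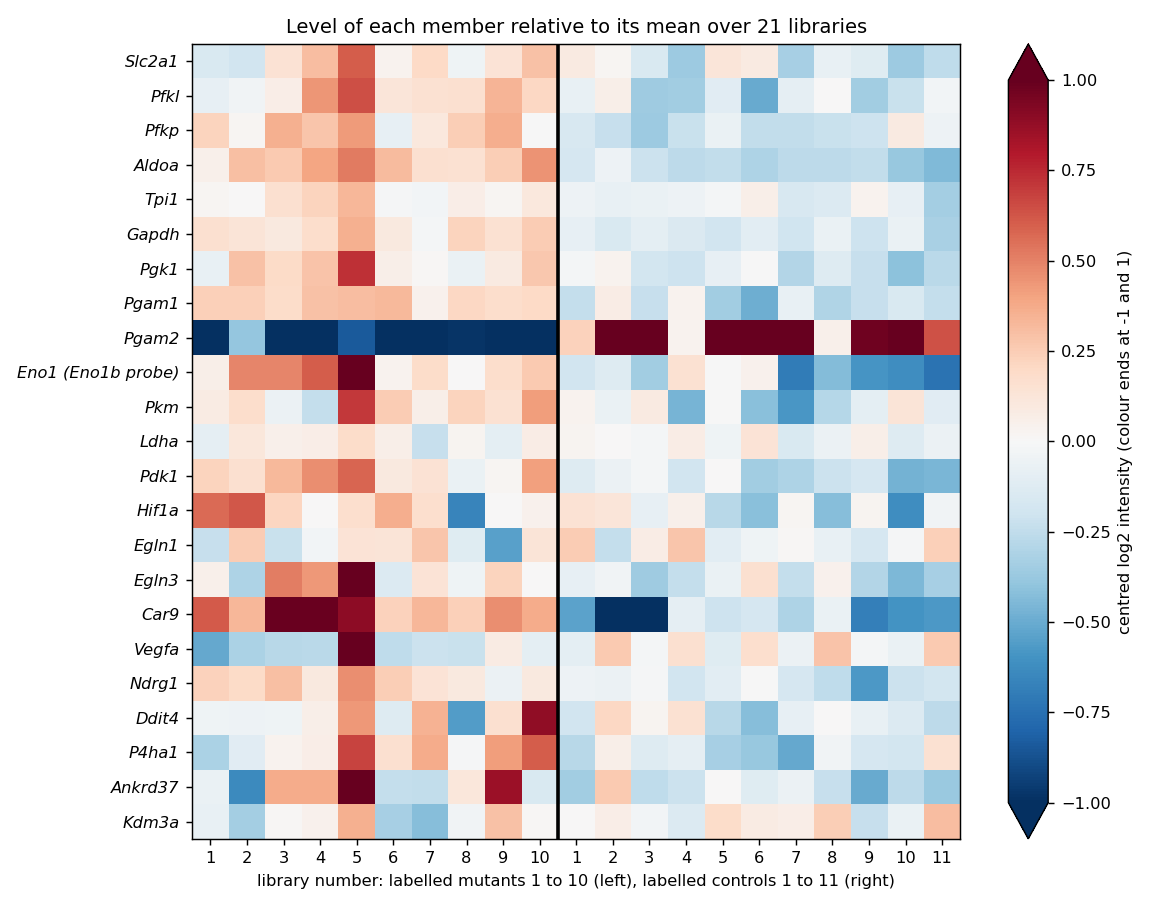
Level of each tested member in each library as log2 intensity relative to the gene's mean over 21 libraries (red higher, blue lower, colour ends at -1 and 1), with labelled mutants 1 to 10 on the left and labelled controls 1 to 11 on the right. The column of labelled mutant 5 is the reddest, and the row of Pgam2 is blue in every labelled mutant.

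Hk1 and Hk2 (hexokinases) and Gpi1 (glucose phosphate isomerase), which act at the start of the pathway, were not tested here. Phosphofructokinase, next in line, makes fructose 1,6-bisphosphate, and its liver and platelet subunits are encoded by Pfkl and Pfkp. Pfkl ran from 11.58 over a median of 11.82 to 12.31 in labelled mutants, against 11.16, 11.55 and 11.72 in labelled controls. Pfkp ran from 8.43 over 8.75 to 8.93 in labelled mutants, against 8.15, 8.29 and 8.60 in labelled controls. The groups overlapped for both genes, with the labelled mutants in the upper part of the range. Pfkl rose by 0.39 ± 0.09 (adjusted p = 0.00238) and Pfkp by 0.37 ± 0.07 (adjusted p = 3.38e-04). A dimmer tested probe of each gene did not pass, with differences of -0.03 for Pfkl and 0.20 for Pfkp, and the mean of both Pfkl probes did not pass (0.18, adjusted p = 0.104). Without the 6 libraries with Car1 signal Pfkl did not pass either (0.33, adjusted p = 0.122).

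Aldoa encodes aldolase A, which splits fructose 1,6-bisphosphate. It ran from 11.65 over a median of 11.89 to 12.12 in labelled mutants, against 11.16, 11.35 and 11.55 in labelled controls. The lowest labelled mutant was above the highest labelled control. The difference was 0.54 ± 0.06, or 1.46-fold (adjusted p = 3.31e-07). Groups that do not overlap were seen for 4 of the 23 tested members (Aldoa, Gapdh and Car9 higher, Pgam2 lower), beside 4.4% of all genes, 1.85% higher and 2.55% lower. Tpi1, which interconverts the 2 triose phosphates, rose by 0.17 ± 0.06 on its brightest probe (adjusted p = 0.035), by 0.32 on the second probe (adjusted p = 5.57e-04), while the dimmest read 0.04 (adjusted p = 0.896). The call of the brightest Tpi1 probe was lost when any of labelled mutants 3, 4 and 5 or labelled controls 7, 8 and 11 was left out alone, with differences down to 0.14 and adjusted p up to 0.0684.

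Gapdh and Pgk1 carry out the next steps, an oxidation and the first transfer of phosphate to ADP. Gapdh, often used as a reference transcript, ran from 13.15 over a median of 13.32 to 13.52 in labelled mutants, against 12.84, 13.02 and 13.10 in labelled controls. Every labelled mutant was above every labelled control, by a small margin. Gapdh rose by 0.31 ± 0.05, or 1.24-fold (adjusted p = 5.7e-05). Pgk1 ran from 11.17 over 11.38 to 11.97 in labelled mutants, against 10.83, 11.06 and 11.28 in labelled controls. Its groups overlapped, and the highest value was that of labelled mutant 5. Pgk1 rose by 0.34 ± 0.08 (adjusted p = 0.00452), and by 0.28 without that library (adjusted p = 0.00459).

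The phosphoglycerate mutases, which move the phosphate within phosphoglycerate, went opposite ways. Pgam1 encodes the widely expressed form and Pgam2 the form best known from skeletal and heart muscle. Pgam1 ran from 9.17 over a median of 9.35 to 9.46 in labelled mutants, against 8.64, 8.90 and 9.20 in labelled controls. The groups touched at a single point, as labelled mutant 7 lay below labelled control 2, and all other labelled mutants were above all labelled controls. Pgam1 rose by 0.42 ± 0.06, or 1.34-fold (adjusted p = 2.37e-05), and its dimmer probe differed by as much without passing (0.42 ± 0.16, adjusted p = 0.069). The dimmer probe was detected in 8 labelled mutants and 4 labelled controls. It met the filter of 5 arrays only through the labelled mutants, so it is no separate support. The Pgam1 promoter window is the one above with 3 marked matches.

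Pgam2 ran from 5.30 over a median of 5.48 to 6.24 in labelled mutants, against 6.67, 7.78 and 8.64 in labelled controls. Every labelled mutant was below every labelled control. It fell by 2.05 ± 0.21 on the log2 scale, or 4.14-fold (adjusted p = 9.66e-08), and 9 of the 9961 genes fell by more. The size depends on the background step: it was -1.41, or 2.65-fold lower, with no background correction. From the deposited processed values, with lower ones raised to a floor of 16, it was -2.47, or 5.55-fold lower. The labelled controls were more widely spread (SD 0.66, n = 11) than the labelled mutants (SD 0.28, n = 10), and the probe was detected on all 21 arrays. The signal of 6 tested markers of skeletal and heart muscle, summed per library on the linear scale, ran from 648 to 978 in labelled mutants, against 582 to 1114 in labelled controls, so their ranges overlapped. Of these 6, Mylpf, a myosin light chain of fast muscle, was lower (-0.31 ± 0.10, adjusted p = 0.0337) and the other 5 were not called, and of 5 tested smooth muscle markers 0 were called. Their part in the fall of Pgam2 was not tested.

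**Figure D3:**
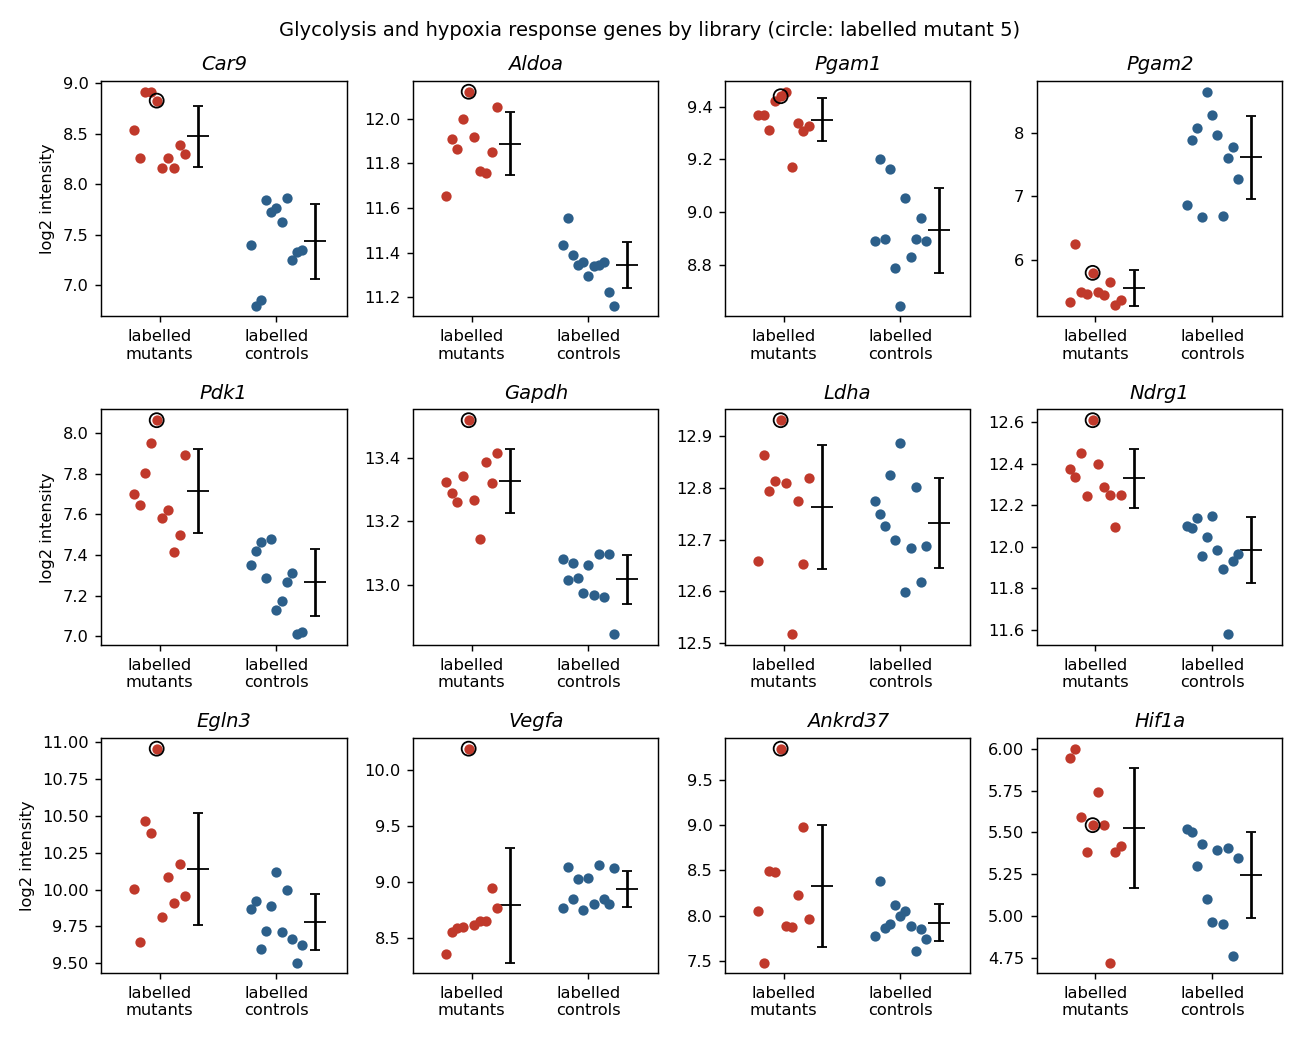
Log2 intensity of 12 members in each library, labelled mutants (red, n = 10) left of labelled controls (blue, n = 11), with mean and SD beside each group and a circle around labelled mutant 5. Car9, Aldoa and Gapdh separate upwards and Pgam2 downwards, while Ldha overlaps throughout and the mean of Vegfa in labelled mutants is drawn up by the circled library.

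Enolase and pyruvate kinase complete the path to pyruvate. Eno1 was measured only through a probe that the platform names Eno1b, of which Eno1 is an older synonym. The copies are nearly identical, so which of them the probe reads is uncertain. It ran from 6.10 over a median of 6.32 to 7.35 in labelled mutants, against 5.36, 5.75 and 6.25 in labelled controls. The groups overlapped at the edges, and labelled mutant 5 was far above the rest. The difference was 0.68 ± 0.14, or 1.6-fold (adjusted p = 0.00119), 0.58 without that library (adjusted p = 0.00111) and 0.42 with no background correction (adjusted p = 0.00178). Pkm, encoding the muscle-type pyruvate kinase that most non-hepatic tissues use, rose by 0.34 ± 0.11 (adjusted p = 0.0242), with levels of 10.46 to 11.40 in labelled mutants and 10.11 to 10.82 in labelled controls. Pkm did not pass without the 6 libraries with Car1 signal (0.39, adjusted p = 0.114).

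Ldha encodes the lactate dehydrogenase subunit that turns pyruvate into lactate and is a textbook hypoxia target. It ran from 12.52 over a median of 12.80 to 12.93 in labelled mutants, against 12.60, 12.73 and 12.89 in labelled controls. The groups lay over each other. The difference was 0.03 ± 0.05 (adjusted p = 0.762).

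Pdk1 encodes pyruvate dehydrogenase kinase 1, which keeps pyruvate out of the mitochondrial citrate cycle. It ran from 7.41 over a median of 7.67 to 8.06 in labelled mutants, against 7.01, 7.29 and 7.48 in labelled controls. Only the lowest labelled mutant reached into the range of the labelled controls. Pdk1 rose by 0.45 ± 0.08, or 1.37-fold (adjusted p = 2.48e-04). Slc2a1, the glucose transporter GLUT1, had a difference of 0.25 ± 0.09 (adjusted p = 0.0526), just outside the threshold, with levels of 10.10 to 10.90 in labelled mutants and 9.93 to 10.42 in labelled controls. It passed when any of labelled mutants 1, 2 and 8 or labelled controls 1, 5 and 6 was left out alone, with differences of 0.27 to 0.29 and adjusted p of 0.0256 to 0.0443.

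The oxygen-sensing genes were less uniform. Hif1a encodes the oxygen-regulated subunit of the factor, which is controlled mainly through protein stability. Its probe was dim, detected in 9 of 10 labelled mutants and 8 of 11 labelled controls. It ran from 4.72 over a median of 5.54 to 6.00 in labelled mutants, against 4.76, 5.35 and 5.52 in labelled controls. The groups overlapped widely, and labelled mutant 8 was the lowest of all libraries. The difference was 0.28 ± 0.13 (adjusted p = 0.128), and it passed without labelled mutant 8 (0.37, adjusted p = 0.0149) and without the 6 libraries with Car1 signal (0.53, adjusted p = 0.0206). Of the prolyl hydroxylases, Egln3, itself a strongly induced hypoxia target, was higher by 0.36 ± 0.12 (adjusted p = 0.0412). A dimmer Egln3 probe read 0.49 ± 0.26 (adjusted p = 0.209), and the mean of the tested probes did not pass (0.42, adjusted p = 0.0842). Levels of the brightest probe were 9.64 to 10.96 in labelled mutants, with labelled mutant 5 on top, and 9.50 to 10.12 in labelled controls. The call did not hold without that library (0.27, adjusted p = 0.0611), nor when any of labelled mutants 3, 4, 7 and 9 or labelled controls 3, 4, 7, 9, 10 and 11 was left out alone, with adjusted p up to 0.0768. Egln1, the main oxygen sensor in most tissues, differed by -0.04 ± 0.09 (adjusted p = 0.826), and a further probe by 0.06.

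Car9 encodes carbonic anhydrase 9, a cell surface enzyme that handles acid and a widely used marker of hypoxia. It ran from 8.16 over a median of 8.35 to 8.92 in labelled mutants, against 6.80, 7.40 and 7.87 in labelled controls. Every labelled mutant was above every labelled control. Car9 rose by 1.04 ± 0.14, or 2.05-fold (adjusted p = 6.62e-06), the largest rise among the tested members, and 97 of the 9961 genes rose by more. Its other probes were dimmer, with differences of 0.54 ± 0.15 (adjusted p = 0.0117) and 0.76 ± 0.17 (adjusted p = 0.00149). Each was detected in 9 labelled mutants, but in only 2 and 4 labelled controls. They met the filter of 5 arrays only through the labelled mutants, so they are no separate support for the rise. On the brightest Car9 probe the difference was 1.00 without labelled mutant 5 and 1.20 without the 6 libraries with Car1 signal.

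Ndrg1, a stress-responsive gene, rose on both probes, by 0.35 ± 0.07 (adjusted p = 7.55e-04) and 0.31 ± 0.07 (adjusted p = 0.00316). P4ha1, a subunit of the collagen prolyl hydroxylase, rose by 0.36 ± 0.11 on its representative probe (adjusted p = 0.0206), while another probe of similar brightness read 0.03 ± 0.08 (adjusted p = 0.837). The 2 probes of P4ha1 thus disagree. The difference was 0.20 with no background correction and also as the mean of both probes, and the rise did not pass without the 6 libraries with Car1 signal (0.24, adjusted p = 0.373).

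Vegfa, the growth factor for blood vessels and a classical hypoxia target, did not share the rise. It ran from 8.36 over a median of 8.63 to 10.19 in labelled mutants, against 8.75, 8.85 and 9.15 in labelled controls. Labelled mutant 5 was more than 1 log2 unit above every other library, while the next highest labelled mutant, at 8.94, lay within the labelled controls. The difference was -0.14 ± 0.15 (adjusted p = 0.587). Without labelled mutant 5 it was -0.30 and passed as a fall (adjusted p = 0.00543), and the further probe read -0.14 with all libraries (adjusted p = 0.27). Ankrd37, a small gene with strong hypoxic induction in cultured cells, had the same library on top. It ran from 7.48 over 8.14 to 9.84 in labelled mutants, against 7.61, 7.88 and 8.38 in labelled controls. The groups overlapped, and the difference of 0.40 ± 0.20 did not pass (adjusted p = 0.17), nor did 0.23 without labelled mutant 5 (adjusted p = 0.28). Ddit4, an inhibitor of growth signalling through mTORC1, differed by 0.20 ± 0.13 (adjusted p = 0.291). Kdm3a, a histone demethylase, differed by -0.09 ± 0.09 on its representative probe (adjusted p = 0.551), and its other tested probes were also below 0 without a call.

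The scaling of the arrays changed how many members were called, but none of the called directions; of the uncalled members, Ldha was -0.051 with the median of all probes and Egln1 0.013 with the median of detected probes, each with its sign turned. Where each array was set to a common median over all probes instead of quantiles, the glycolytic enzymes counted 5 higher (Pfkp, Aldoa, Gapdh, Pgam1 and the enolase probe) and 1 lower, and the other members 2 higher (Car9 and Pdk1) and 0 lower. Under this scaling 4.64% of all genes were called higher and 12.6% lower, so the split of calls moved for all genes too. The median differences were 0.27 and 0.26, beside -0.04 over all genes. The SE was larger for 22 of the 23 tested members, as for Aldoa with 0.45 ± 0.10, in place of 0.54 ± 0.06, and slightly smaller for Hif1a.

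Where the common median was taken over the 12373 probes detected on all arrays, the counts returned to 9 higher and 1 lower for the glycolytic enzymes and 5 higher and 0 lower for the other members, beside 11.2% and 11.7% of all genes. The 5 other members were then Pdk1, Hif1a, Car9, Ndrg1 and P4ha1, with Hif1a called (0.35, adjusted p = 0.034) and Egln3 not (0.35, adjusted p = 0.0578). The median differences were 0.34 for each class, beside 0.03 over all genes. Before scaling, the median of all probes lay between 4.44 and 4.65 in labelled mutants and between 4.48 and 4.65 in labelled controls, while that of the probes detected on all arrays ran from 7.43 to 8.14 in labelled mutants and from 7.60 to 8.09 in labelled controls. Pgam2 was -2.10 with the median of all probes and -2.02 with the median of detected probes.

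**Figure D4:**
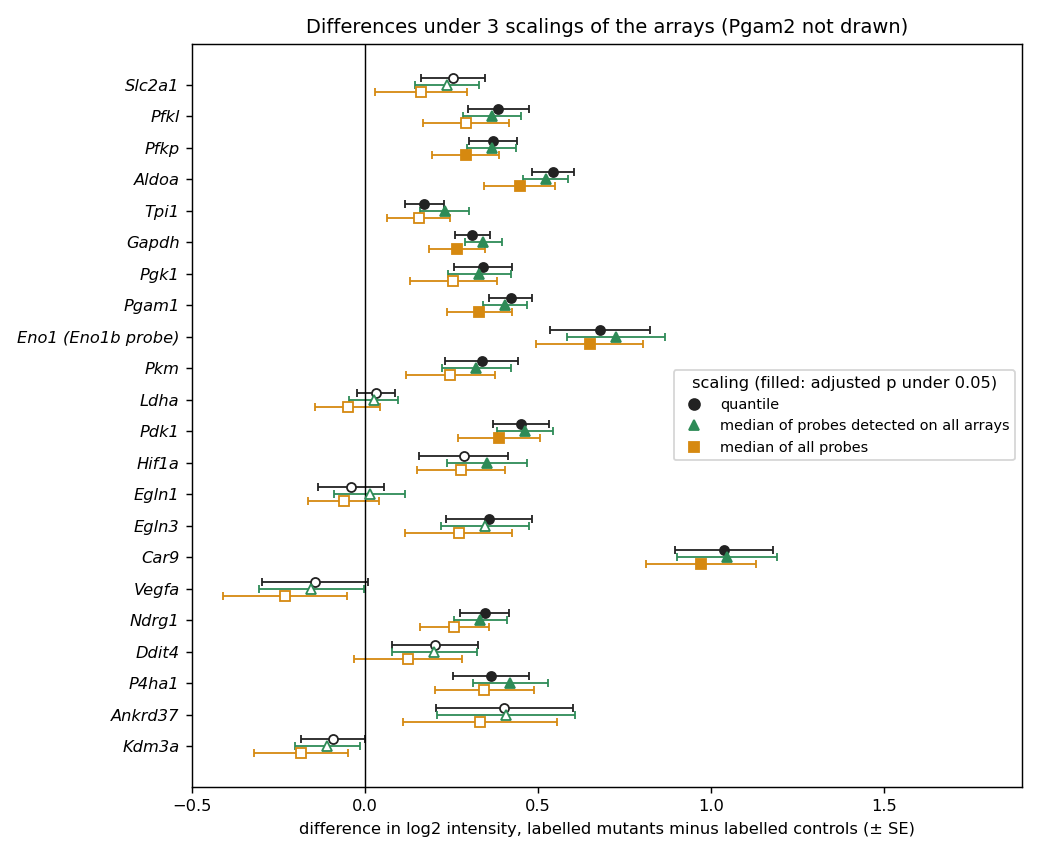
Differences of 22 tested members with SE bars under 3 scalings of the same background-corrected values: quantiles (circles), the median of probes detected on all arrays (triangles) and the median of all probes (squares), filled where the adjusted p was under 0.05. Scaling to the median of all probes gives wider bars for most members and fewer filled symbols; Pgam2 is left out for its size.

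Of 30 further genes of glycolysis and glucose handling, 18 were tested, of which 6 were higher and 1 lower, with a median difference of 0.22. The share higher was 33.3%, beside 10.6% higher and 12.6% lower among all genes. With the median of all probes 4 were higher and 1 lower, beside 4.64% and 12.6% of all genes. Pdk4, another pyruvate dehydrogenase kinase, was higher by 0.78 ± 0.14 (adjusted p = 2.5e-04). Aldoc and Eno3, which encode tissue-restricted forms of aldolase and enolase, were higher by 0.57 ± 0.10 and 0.46 ± 0.07, and Pfkm, the muscle-type phosphofructokinase subunit, by 0.42 ± 0.06. Hkdc1 and Pdha1 made up the 6, at 0.29 each, but were not called with the median of all probes (limma adjusted p = 0.331 and 0.134). Pfkfb4, a regulator of fructose 2,6-bisphosphate, was lower by 0.45 on the log2 scale (-0.45 ± 0.10, adjusted p = 0.00128). Eno3 and Pfkm, which like Pgam2 are best known from muscle, thus went up where Pgam2 went down.

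Of 10 gluconeogenesis genes 7 were tested, and 0 were higher and 1 lower, Fbp2, a fructose bisphosphatase, at -0.20 ± 0.06 (adjusted p = 0.0189). Of 39 further genes of the hypoxia response 32 were tested, and 4 were higher and 4 lower, with a median of -0.00. These are 12.5% each way, near the 10.6% higher and 12.6% lower among all genes, so the counts of this list, like the single call among 7 gluconeogenesis genes, are not set apart from the background. Plod2, a collagen lysyl hydroxylase, was higher by 0.54 ± 0.11, the uridine phosphorylase gene Upp1 by 0.49 ± 0.10, Angptl4 by 0.46 ± 0.09 and Cited2 by 0.27 ± 0.07. The heme oxygenase gene Hmox1 was lower at -0.87 ± 0.28 (adjusted p = 0.0278), Hif1an, which encodes an asparagine hydroxylase that restrains the factor, at -0.80 ± 0.11 (adjusted p = 7.24e-06), the carbonic anhydrase gene Car12 at -0.79 ± 0.14 (adjusted p = 1.15e-04), and the prolyl hydroxylase gene Egln2 at -0.20 ± 0.06. Carbonic anhydrases 9 and 12 thus went opposite ways.

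Markers of other cell types differed between the groups as well. The signal of 4 tested leukocyte markers summed to 732 to 1180 in labelled mutants and 1586 to 1985 in labelled controls, with no overlap. That of 8 epithelial markers ran from 27571 to 40101 in labelled mutants and from 23870 to 33868 in labelled controls. Of 3 tested red blood cell markers, 6 endothelial markers and 6 genes of handling stress, 0 were called in either direction, nor were any of 3 tested liver markers. Of 7 mesenchyme markers Col3a1 was higher (0.52 ± 0.13, adjusted p = 0.00544), and of 7 pancreas markers Cela1 was lower (-1.31 ± 0.31, adjusted p = 0.00281). The pancreas markers summed to 313 to 50685 in labelled mutants and 908 to 28273 in labelled controls, a very wide spread between libraries. Of 2 neuron and glia markers Ret was lower (-0.52 ± 0.07, adjusted p = 8.35e-06), and their sums were 372 to 472 in labelled mutants and 464 to 625 in labelled controls. The part of these marker differences in the members' values was not tested. The libraries were also split by the sign of their score on the main axis of variation within the genotypes, which the labels do not explain. This gave a part A (4 labelled mutants and 6 labelled controls) and a part B (6 labelled mutants and 5 labelled controls). Detected probes ran from 14596 to 15241 in part A and from 14914 to 16085 in part B. Within part A 4 glycolytic enzymes and 4 other members were higher, beside 5.55% of all genes, and Pgam2 and Vegfa (-0.36, adjusted p = 0.0257) were lower, beside 8.27%. Within part B 6 glycolytic enzymes and 2 other members were higher, beside 5.33%, and Pgam2 was lower, beside 7.04%. Within part A the uncalled differences of Egln3 (0.14), P4ha1 (0.21), Pfkl (0.23), Pgk1 (0.22) and Tpi1 (0.06) were smaller than over all libraries by over 1.5 times. In both parts Pgam2 was the only glycolytic enzyme that was lower, and Aldoa, Gapdh, Pgam1, Pgam2, Pdk1, Pfkp and Car9 passed in both parts with the same direction.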

How the data were processed

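There were 21 arrays, 10 of labelled mutants and 11 of labelled controls, each called a biological replicate in its description. Column-purified RNA was made into biotinylated cRNA, per the labels' protocols. The deposited table of raw values gives a linear intensity per probe and array, beside a deposited detection p-value per probe and array in steps of 1 in 936. The submitters' processing notes name GenomeStudio 2009.2. The deposited processed intensity values are a straight-line function of the raw ones within each array, with 1 scale factor of 0.754 to 1.38 per array, a largest residual of 0.0112 intensity units and column medians of 4.81 to 6.98. Their scale is linear, their direction that of brightness, and their normalization is not named here.

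Raw values went through neqc in limma 3.58.1 (R 4.3.3): normexp background from the detection p-values, an offset of 16, which draws fold changes of dim probes towards 1, quantile normalization and log2. Of 45281 probes, the 16641 with a detection p under 0.01 in 5 or more of the 21 arrays were tested. Symbols came from the platform annotation, which gave 1 symbol for 34885 probes, several for 18 and none for 10378, and 34807 were matched to RefSeq gene names. A gene was its brightest tested probe. Where a probe was detected in no array of a group, the fold is a bound: the bright group's mean against the mean, per array, of the dim probe's own signal or the lowest detected signal, whichever is higher. Of the members, 11 had more than 1 tested probe, and of the 14 further probes 2 had the opposite sign and 6 another call. Probes matched only through an older synonym now used by a different gene (Pdpk1 for Pdk1, Pigq for Gpi1) were left out.

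Groups were compared with lmFit and eBayes, genotype being the only term, with Benjamini-Hochberg adjustment over all probes tested. p-values measure the spread between these samples. The members, the lists and the rule for naming genes (all members, their values per library where called with a difference of at least 0.4 log2, and the 5 largest called differences of each further list) were chosen with earlier results of these data known, so lists are described by counts and medians beside all genes, with no test. The remaining called genes of those lists are named too. The fit was tested on simulated data with noise drawn independently for each probe and library. That simulation holds no shifts shared by many genes of a library, so it does not test the calls under such shifts. Pairs of normalized arrays correlated at 0.971 to 0.993. Libraries of the same number deviated together with correlations of -0.25 to 0.30, over 0.1 in 6 of 10 numbers. Of the 10 labelled mutants, 0 correlated best with the labelled control of the same number, so numbers were not taken as pairs. Alternatives changed the scaling, background, filter, probe choice, weights, block and libraries.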

Additional observations from a re-analysis of the deposited data

Results flagged for a closer look

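In 6 of the 23 tested members a single labelled mutant lay apart from the other 9 by a gap that was large for the range of the group. Chance flags about 1 in 20 independent groups at this limit, a gap of 0.466 of the range. The members are not independent, as the enolase, Pgk1 and Vegfa flags all come from labelled mutant 5. Pgam1 (0.476) and Pgam2 (0.472) were just past the limit, and no share over all genes was computed. In labelled mutant 5 the enolase probe read 7.35, with the next library at 6.70, Pgk1 read 11.97, with the next at 11.53, and Vegfa read 10.19, with the next at 8.94. Hif1a was lowest in labelled mutant 8, at 4.72, with the next at 5.38. Pgam1 was lowest in labelled mutant 7, at 9.17, with the next at 9.31, and Pgam2 was highest in labelled mutant 2, at 6.24, with the next at 5.80. All values are log2 intensity. The cause of these gaps was not tested.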

How the results depend on the processing

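Of 35 alternatives, 21 left out 1 library each, and 13 of the 15 called members kept call and direction under all of those 21; Tpi1 and Egln3 did not. Pfkp, Aldoa, Gapdh, Pgam1, Pgam2, Pdk1 and Car9 kept theirs under all 35. Leaving out 1 library gave 8 to 9 glycolytic enzymes higher and 1 lower, with medians of 0.29 to 0.37, and 4 to 7 other members higher and 0 to 1 lower, with medians of 0.25 to 0.36, beside 2102 to 2339 genes called of all, against 2307 with all libraries; the 1 lower is Vegfa without labelled mutant 5. Scaling to the median of all probes gave 5 glycolytic enzymes and 2 other members higher. With the replicate block, 8 glycolytic enzymes and 4 other members were higher and 1 and 0 lower. Tpi1 (adjusted p = 0.108) and Egln3 (adjusted p = 0.0988) were then not called, and 2001 genes were called of all. The numbers were not taken as pairs of libraries. The next alternatives were chosen after seeing the data. Without the 6 libraries with Car1 signal 1251 genes were called of all. Within part A, 4 glycolytic enzymes were higher (median 0.24), and among the other members 1 was lower (Vegfa, -0.36; median 0.13), with 1377 genes called of all. Within part B, 2 other members were higher and 1232 genes were called of all. These 3 rest on fewer samples. Differences that changed sign, none of them called, were Ldha (-0.051 with the median of all probes, -0.034 in part A), Egln1 (0.013 with the median of detected probes, 0.0097 with the mean of probes, 0.069 in part A, and -0.074 to 0.017 with 1 library left out, above 0 without labelled mutant 9) and Ankrd37 (-0.11 in part A); the cause was not tested. Dim probes such as Hif1a and Egln1 lie near the limit of detection, where the offset draws any difference towards 0. Egln1 was close to 0 also from the deposited processed values (-0.039), so no hidden difference is shown for it.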
